A study of Homo sapiens with 6 samples.

Results

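The 4 HOX clusters are rows of homeobox genes on chromosomes 7 (HOXA), 17 (HOXB), 12 (HOXC) and 2 (HOXD), and their H3K27me3 coverage is described here in 3 lines derived from diffuse large B cell lymphoma. A fixed hg19 window was taken for each cluster: 27130 to 27290 kb of chromosome 7, 46600 to 46810 kb of chromosome 17, 54330 to 54450 kb of chromosome 12 and 176940 to 177060 kb of chromosome 2. The windows measure 160, 210, 120 and 120 kb, or 610 kb in all. The enriched intervals of the deposited lists, called islands, were kept where they met a window by at least 1 base. That left 9 of 21320 islands of Pfeiffer, 13 of 23180 of WSU-DLCL2 and 18 of 28472 of KARPAS-422. The 38 member genes are HOXA2 to HOXA7, HOXA9 to HOXA11 and HOXA13, then HOXB1 to HOXB9 and HOXB13, then HOXC4 to HOXC6 and HOXC8 to HOXC13, and finally HOXD1, HOXD3, HOXD4 and HOXD8 to HOXD13.

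All 3 lines carry mutant EZH2, the methyltransferase that writes H3K27me3, according to the labels, which do not name the allele. The labels give average gIC50 values of 28 nM for Pfeiffer, 134 nM for WSU-DLCL2 and 232 nM for KARPAS-422 without naming the compound. The study set out to map the mark in lines that respond unequally to GSK126, an EZH2 inhibitor, and the protocols in the labels describe no drug treatment before fixation. Every line is an established culture that gave 1 H3K27me3 library with its input. Without a repeat of either, lines are set side by side with no p-value, and a difference between them may be no larger than that between repeats of 1 line. The lists held 17024803, 17188115 and 16039824 H3K27me3 reads in autosomal islands of the 3 lines in the same order, and 8800268, 8224578 and 5694645 input reads.

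HOX proteins are transcription factors that give cells of the embryo their position along the head-to-tail axis. Genes within a cluster are switched on in the order in which they lie, with low numbers acting towards the head and high numbers towards the tail, and the clusters are classical targets of Polycomb repression: the complex PRC2, with EZH2 as its catalytic subunit, methylates lysine 27 of histone H3 across silent HOX genes. In blood, several HOXA and HOXB genes are active in stem and progenitor cells and are turned down as cells mature. HOXA9 and HOXA10 are known for their activity in myeloid leukaemia and HOXB4 for promoting the self-renewal of blood stem cells. HOXC4 is active in B cells, where it is known to promote expression of the deaminase that drives antibody class switching.

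Positions of single genes on hg19 were not used here. The order of the genes, read from the RefSeq table for GRCh38.p14, gives the side of each window on which they lie. Low-numbered genes lie at the low-coordinate end of the HOXA and HOXB windows and at the high-coordinate end of the HOXC and HOXD windows. An island can be tied to a named gene only where it spans a whole window, which happened once: the Pfeiffer island over HOXB holds all 10 HOXB members.

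CpG-rich promoters without bound activators are the sites where PRC2 is classically found. RefSeq promoter windows for GRCh38.p14 were matched for 20 of the 38 members (26 distinct windows). The 250 bases before the annotated start are shown for the outermost members that were matched, with each CG dinucleotide in capitals. HOXB1, a hindbrain patterning gene, is shown because it lies in the unbroken Pfeiffer island. HOXA2, which patterns the branchial arches, and HOXA13, which patterns the limb tips and the urogenital tract, mark the sparsely and the densely covered ends of the HOXA window. HOXD1 and HOXD13, a digit-patterning gene, mark the ends of the HOXD window, whose covered end differed between lines. HOXC4 stands for the cluster with the largest share covered in all 3 lines.
HOXB1 (minus strand): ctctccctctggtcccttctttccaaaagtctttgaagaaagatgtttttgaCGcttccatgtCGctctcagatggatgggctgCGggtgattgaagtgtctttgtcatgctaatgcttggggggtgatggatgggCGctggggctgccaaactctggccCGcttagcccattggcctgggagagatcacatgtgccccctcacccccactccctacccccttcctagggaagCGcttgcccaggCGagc
HOXA2 (minus strand): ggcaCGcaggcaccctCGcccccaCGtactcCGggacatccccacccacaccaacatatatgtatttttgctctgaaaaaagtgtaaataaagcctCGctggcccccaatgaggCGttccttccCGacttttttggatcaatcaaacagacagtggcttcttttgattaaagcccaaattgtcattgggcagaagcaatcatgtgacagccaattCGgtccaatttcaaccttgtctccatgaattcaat
HOXA13 (minus strand): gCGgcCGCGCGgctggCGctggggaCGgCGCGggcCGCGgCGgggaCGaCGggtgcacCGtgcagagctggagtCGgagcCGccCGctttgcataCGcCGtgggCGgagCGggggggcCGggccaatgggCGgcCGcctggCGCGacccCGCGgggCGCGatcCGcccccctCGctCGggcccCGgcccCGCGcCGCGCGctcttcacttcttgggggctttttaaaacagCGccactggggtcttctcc
HOXD1 (plus strand): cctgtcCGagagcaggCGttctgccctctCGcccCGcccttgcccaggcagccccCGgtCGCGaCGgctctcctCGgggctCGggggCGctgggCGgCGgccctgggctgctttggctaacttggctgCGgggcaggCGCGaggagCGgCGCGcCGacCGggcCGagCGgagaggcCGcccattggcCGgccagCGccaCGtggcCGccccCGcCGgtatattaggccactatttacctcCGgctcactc
HOXD13 (plus strand): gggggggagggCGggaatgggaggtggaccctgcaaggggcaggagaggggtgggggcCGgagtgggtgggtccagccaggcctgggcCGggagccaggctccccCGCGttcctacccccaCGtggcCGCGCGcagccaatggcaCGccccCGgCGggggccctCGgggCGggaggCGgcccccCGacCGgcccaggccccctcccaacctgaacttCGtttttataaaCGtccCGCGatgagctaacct
HOXC4 (plus strand): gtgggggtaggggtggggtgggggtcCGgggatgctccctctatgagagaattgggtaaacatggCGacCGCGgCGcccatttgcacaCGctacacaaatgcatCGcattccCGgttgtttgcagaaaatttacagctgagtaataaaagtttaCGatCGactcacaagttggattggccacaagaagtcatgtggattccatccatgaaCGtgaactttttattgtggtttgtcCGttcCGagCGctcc

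The searched motif was CG, which reads the same on both strands. HOXB1 held 7 copies in 250 bases, HOXA2 held 8, HOXC4 held 14, HOXD13 held 21, HOXD1 held 31 and HOXA13 held 40. The median of the 26 HOX windows was 19.5 copies, against 11 for 34796 promoter windows of the same length, of which 32.5% held at least 20. Of the 26 HOX windows, 13 held that many. Most of the 26 belong to HOXA and HOXD members, and HOXA3 has several. HOXB and HOXC are represented by the windows of HOXB1 and HOXC4 alone. These counts describe letters only, and islands of many kb do not resolve single promoters.

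Islands covered most of the HOX windows in every line, and most completely in Pfeiffer. Of the 610 kb, 524.5 kb (86.0%) lay in islands in Pfeiffer, 460.75 kb (75.5%) in WSU-DLCL2 and 412.75 kb (67.7%) in KARPAS-422. Over the autosomes the covered share was 25.6%, 24.8% and 24.7%. The covered share thus fell in the order in which the gIC50 rose, over 3 lines and 1 library each. Of the single clusters only HOXD followed this order: WSU-DLCL2 was covered slightly more than Pfeiffer in HOXA and HOXC, and KARPAS-422 more than WSU-DLCL2 in HOXB. HOXD lost it when islands were kept only at a false discovery rate of at most 1e-10, with 76.9% (Pfeiffer), 39.4% (WSU-DLCL2) and 46.25% (KARPAS-422). Over the pooled windows the order was the same without HOXB (78.6%, 75.4% and 61.9%) and without HOXA and HOXB (88.4%, 81.25% and 72.5%). It was not the same among islands with a fold over input of at least 2, where the shares were 34.1% (Pfeiffer), 18.9% (WSU-DLCL2) and 23.0% (KARPAS-422).

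At least 50% of the window was covered in 11 of the 12 combinations of cluster and line, with HOXA in KARPAS-422 as the exception. As background, all autosomes were divided into adjoining windows of the same lengths. Of windows of 120 kb, as for HOXC and HOXD, 24.8% (Pfeiffer), 23.7% (WSU-DLCL2) and 23.0% (KARPAS-422) were covered to at least 50%. For 160 kb, as for HOXA, the shares were 24.3%, 23.0% and 22.5%. For 210 kb, as for HOXB, they were 23.9%, 22.4% and 21.7%. The median autosomal window of these lengths was covered to between 3.125% and 10.4%. In the same order of lines, 17.9%, 14.4% and 24.5% of autosomal windows were covered at least as much as HOXA. The shares were 0.956%, 8.90% and 8.32% for HOXB and 12.2%, 16.5% and 19.7% for HOXD.

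**Figure D1:**
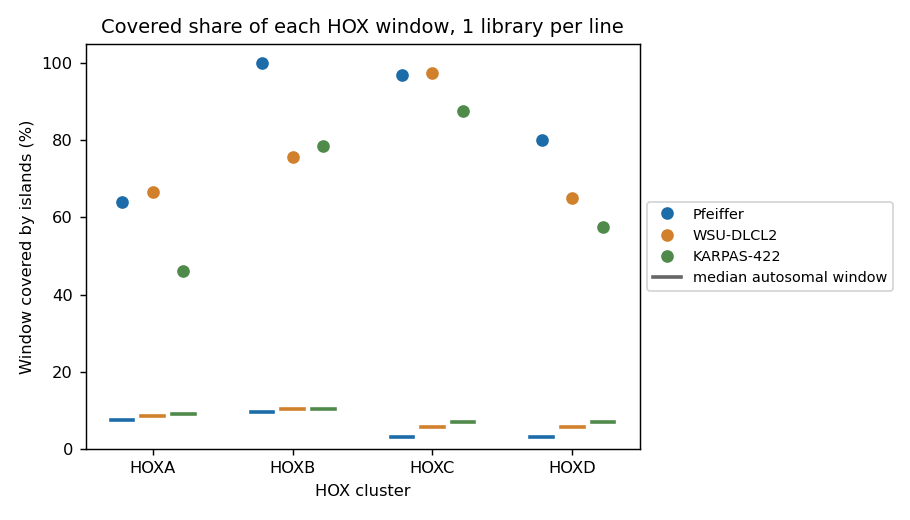
Covered share of each HOX window in percent (vertical axis) for the 4 clusters (horizontal axis), 1 point per cell line, with short bars for the median of all autosomal windows of the same length in that line. HOXC lies between 87.5% and 97.5% in the 3 lines, and HOXA in KARPAS-422 is lowest at 46.1%.

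HOXC had the smallest spread in coverage between the lines. Islands took up 96.9% (Pfeiffer), 97.5% (WSU-DLCL2) and 87.5% (KARPAS-422) of it, and 4.03%, 2.40% and 6.98% of autosomal windows of that length were covered at least as much. The cluster holds HOXC4 and the genes of trunk and hindlimb patterning from HOXC8 to HOXC11, up to HOXC13, a gene of hair and nail formation. In Pfeiffer a single island at chr12:54274501-54446250 took in all but the last 3.75 kb of the window, on the HOXC4 side. In WSU-DLCL2 the island at chr12:54334501-54458250 covered 115.5 kb of the window, and its only break was 3 kb at chr12:54331501-54334500 on the HOXC13 side. KARPAS-422 had a break that began at the same base and measured 8.25 kb, a second of 3.75 kb at chr12:54410251-54414000, and 3 kb without an island at the HOXC4 end. All 3 lines were covered together over 86.9% of the window, and every base of it was covered in at least 1 line.

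HOXB was unbroken in Pfeiffer and broken in the other lines. Its coverage was 100% (Pfeiffer), 75.7% (WSU-DLCL2) and 78.6% (KARPAS-422). The Pfeiffer island at chr17:46203001-46918500 is the longest autosomal island of that list (715.5 kb), of which 210 kb lay in the window. It ran 397 kb beyond the HOXB1 side and 108.5 kb beyond the HOXB13 side. In the RefSeq order the next protein-coding genes there are SKAP1, an adaptor of T cell receptor signalling, and TTLL6. WSU-DLCL2 had a break of 42.75 kb at chr17:46613251-46656000, nearer the HOXB1 end of the window, and breaks of 4.5 and 3.75 kb farther in. KARPAS-422 had 5 breaks of 5.25 to 15.75 kb, the longest at chr17:46618501-46634250, inside the long break of WSU-DLCL2. An island of 17.25 kb at chr17:46634251-46651500 in KARPAS-422 also fell within that break.

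HOXB in Pfeiffer and HOXA in WSU-DLCL2 had raised input. Input reads per kb in islands centred within a span of 5 Mb around the window, divided by the median of the line's autosomal islands, were 1.49 for HOXB in Pfeiffer and 1.50 for HOXA in WSU-DLCL2. In the other 10 combinations the value lay between 0.947 and 1.11. Their part in the unbroken Pfeiffer island and in the long WSU-DLCL2 island of HOXA was not tested.

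HOXA was covered mainly on the side of HOXA13. Islands made up 63.9% (Pfeiffer), 66.7% (WSU-DLCL2) and 46.1% (KARPAS-422) of the window. A stretch of 45 kb at chr7:27146251-27191250, nearer the HOXA2 end of the window, lay outside islands in all 3 lines. It was the longest stretch of any HOX window that no line covered. The break around it measured 45 kb (Pfeiffer), 53.25 kb (WSU-DLCL2) and 55.5 kb (KARPAS-422), and in all 3 lines it ended at the same base. Such a stretch is one where no enrichment was called, and its reads are not in the lists.

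The island that follows this break began at chr7:27191251 in all 3 lines. In Pfeiffer and KARPAS-422 it was also the same in length, at chr7:27191251-27200250 (9 kb). It held 272 H3K27me3 and 112 input reads in Pfeiffer, a fold over input of 2.09 (95% interval 1.67 to 2.63), above 92.9% of the autosomal islands of that list. In KARPAS-422 it held 252 and 55 reads, a fold of 2.78 (2.07 to 3.80), above 97.1% of the list and the highest of all 40 HOX islands. In WSU-DLCL2 the island at chr7:27191251-27306000 ran on unbroken for 114.75 kb with a fold of 1.81 (1.71 to 1.91). Towards HOXA13 the break after the short island measured 9.75 kb in Pfeiffer and 27.75 kb in KARPAS-422, and both lines shared a last break of 3 kb at chr7:27270001-27273000. Breaks of 3 kb are the shortest that the lists allow, since shorter gaps are bridged when islands are called.

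HOXD had the most breaks for its length in each line and the smallest share covered in common. Islands covered 80.0% (Pfeiffer), 65% (WSU-DLCL2) and 57.5% (KARPAS-422), and 41.9% of the window was covered in all 3 lines. Pfeiffer had a main island of 69.75 kb at chr2:176950501-177020250 and 1 of 22.5 kb at chr2:177024001-177046500. Over about the same span WSU-DLCL2 had 4 islands of 14.25 to 22.5 kb. KARPAS-422 had 3 islands of 9 to 13.5 kb there, followed by 1 of 44.25 kb at chr2:177025501-177069750 that ran 9.75 kb past the HOXD1 end. Neither other line covered the last 11.25 kb at that end. A stretch of 6.75 kb at chr2:176943751-176950500 on the HOXD13 side and 1 of 3.75 kb at chr2:177020251-177024000 were outside islands in all 3 lines.

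**Figure D2:**
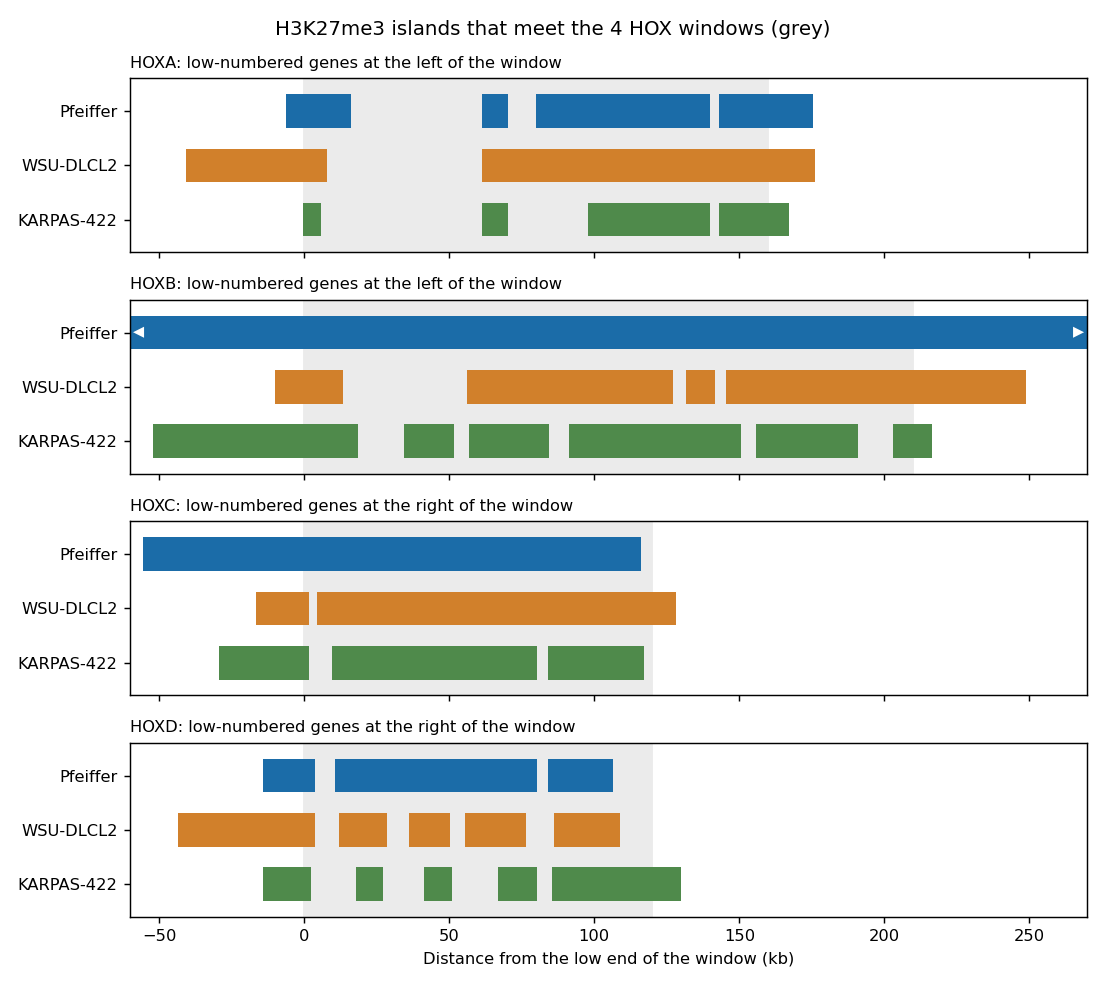
Islands (bars) of the 3 lines along the 4 HOX windows (grey), by distance in kb from the low-coordinate end of each window, with arrowheads where an island runs past the drawn range. The island edge 61.25 kb into HOXA is at the same base in the 3 lines, and the Pfeiffer bar over HOXB has no break.

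Along the clusters, each window was divided into 4 equal segments counted from the side of the low-numbered genes. In HOXA the first segment, on the HOXA2 side, was covered to 40.6% (Pfeiffer), 20% (WSU-DLCL2) and 14.4% (KARPAS-422). The last segment, on the HOXA13 side, was covered to 92.5%, 100% and 92.5%. The last segment was thus covered more than the first in each line. The third segment was covered to 100% in Pfeiffer and WSU-DLCL2 and to 55% in KARPAS-422. Which genes lay in islands cannot be read from segments, since genes were not placed on hg19. HOXD showed no slope common to the lines. KARPAS-422 fell from 100% on the HOXD1 side to 60.0%, 32.5% and 37.5% towards HOXD13, Pfeiffer had 55.0%, 87.5%, 100% and 77.5%, and WSU-DLCL2 stayed between 62.5% and 67.5%. In HOXB the lowest segment was the first one of WSU-DLCL2 (25.2%), and in HOXC the last one of KARPAS-422 (72.5%).

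**Figure D3:**
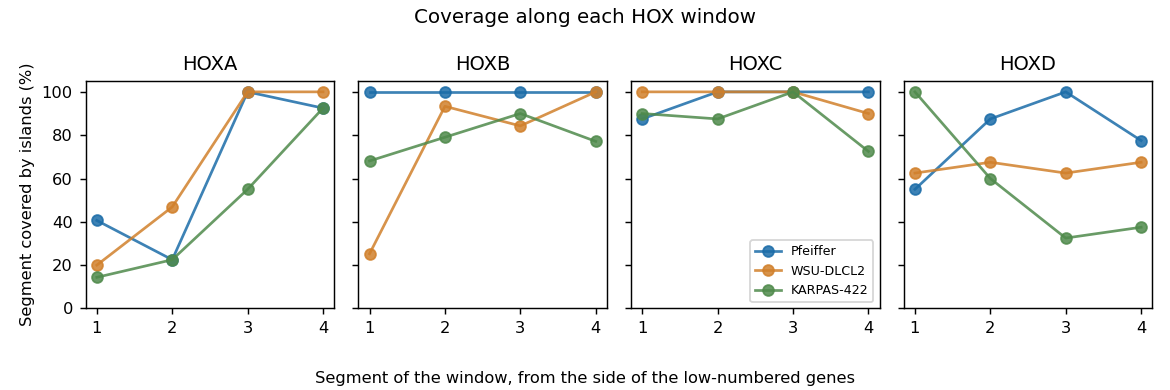
Covered share in percent (vertical axis) of 4 equal segments of each HOX window, numbered from the side of the low-numbered genes (horizontal axis), 1 line per cell line. HOXA ends at 92.5% to 100% in the 3 lines, while HOXD ends at 37.5% in KARPAS-422 and at 77.5% in Pfeiffer.

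The total number of breaks rose from Pfeiffer to KARPAS-422, but of the single clusters only HOXB rose at each step. Stretches of a window outside islands numbered 7 (Pfeiffer), 10 (WSU-DLCL2) and 15 (KARPAS-422), with medians of 6.75, 7.875 and 8.25 kb. In the same order of lines HOXB had 0, 3 and 5 breaks and HOXA 3, 1 and 3. HOXC had 1, 1 and 3, and HOXD 3, 5 and 4. Input was raised for HOXB in Pfeiffer and for HOXA in WSU-DLCL2, whose part in these counts was not tested. Islands were also shorter over the whole list in KARPAS-422, with autosomal medians of 20.25, 18.75 and 15.75 kb in the 3 lines. Per 100 kb of island length there were 2.88, 3.23 and 3.88 islands over the autosomes, against 0.803, 2.05 and 3.39 in the HOX islands. The Pfeiffer value rests on the 715.5 kb island of HOXB.

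Few edges lay at the same base in several lines. Inside the windows islands began or ended at 52 positions, of which 1, the start in HOXA, was common to 3 lines, 6 to 2 lines and 45 to 1. HOXA held 3 of the 6, all in Pfeiffer and KARPAS-422. HOXB held none, and there the nearest match was 750 bases, between the starts at chr17:46656001 in WSU-DLCL2 and chr17:46656751 in KARPAS-422.

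By shared coverage, the 4 windows ranked HOXC, HOXB, HOXA and HOXD, with 86.9%, 63.9%, 46.1% and 41.9% covered in all 3 lines. In HOXA 28.1% and in HOXD 8.75% lay outside the islands of every line, against 0 kb in HOXB and HOXC. Over all windows 59.4% was covered in 3 lines, 19.4% in 2, 12.0% in 1 and 9.10% in none. As a Jaccard index, which divides the bases covered in both lines by those covered in either, Pfeiffer and WSU-DLCL2 reached 0.944 in HOXC and 0.771 in HOXD. For Pfeiffer and KARPAS-422 the index was 0.891 in HOXC and 0.507 in HOXD, the lowest of the 12 values.

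The outer limits of the HOX islands also varied between lines. The islands that met the windows reached beyond them by 596.75 kb (Pfeiffer), 173.75 kb (WSU-DLCL2) and 119 kb (KARPAS-422). The Pfeiffer sum lies mainly beside HOXB. On the HOXA2 side of HOXA they ran 40.75 kb out in WSU-DLCL2, 6.25 kb in Pfeiffer and 0.25 kb in KARPAS-422. Islands filled 81.5% of the first 50 kb beyond that side in WSU-DLCL2, but 12.5% and 0.5% in Pfeiffer and KARPAS-422. This was the window with raised input, whose part here was not tested. On the HOXA13 side the limits were closer, at 15.25 kb (Pfeiffer), 16 kb (WSU-DLCL2) and 7 kb (KARPAS-422). EVX1, a homeobox gene, comes next to HOXA13 in the RefSeq order, and its place relative to the window's limit was not determined. At the HOXD1 end the islands stopped 13.5 kb inside the window in Pfeiffer and 11.25 kb inside it in WSU-DLCL2, and the next islands began 42 and 41.25 kb farther on, towards MTX2. On the HOXD13 side all 3 lines had an island across the window's limit. It reached 14.25 kb out in Pfeiffer and in KARPAS-422 and 43.5 kb in WSU-DLCL2. The homeobox gene EVX2 comes next to HOXD13 in the RefSeq order, and whether it lies inside the window was not determined.

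The fold over input, the authors' ratio of H3K27me3 to input reads after scaling the libraries, was highest in HOXC in each line. Pooled over the islands of the HOXC window it came to 2.09 (95% interval 1.97 to 2.21), 2.24 (2.11 to 2.38) and 2.10 (1.95 to 2.27) in Pfeiffer, WSU-DLCL2 and KARPAS-422. HOXD had the lowest pooled fold in each line, at 1.67 (1.55 to 1.80), 1.42 (1.33 to 1.53) and 1.59 (1.45 to 1.74). HOXA had 1.89, 1.73 and 1.72, and HOXB 1.75, 1.80 and 1.84. Reads were summed over whole islands, including parts outside a window. For HOXB in Pfeiffer only 210 of the 715.5 kb lay in the window, so its value comes mostly from the flanks. The intervals of HOXD overlapped those of HOXA and of HOXB in Pfeiffer and in KARPAS-422, and lay below both in WSU-DLCL2. The intervals of HOXC and HOXD were apart in each line. Those of HOXC and HOXA overlapped in Pfeiffer, and those of HOXC and HOXB in KARPAS-422 barely parted, with an upper bound of 1.948 for HOXB and a lower bound of 1.950 for HOXC. All these intervals hold the error of counting alone, and the reads, which carry no molecular tags, may include copies of 1 fragment.

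**Figure D4:**
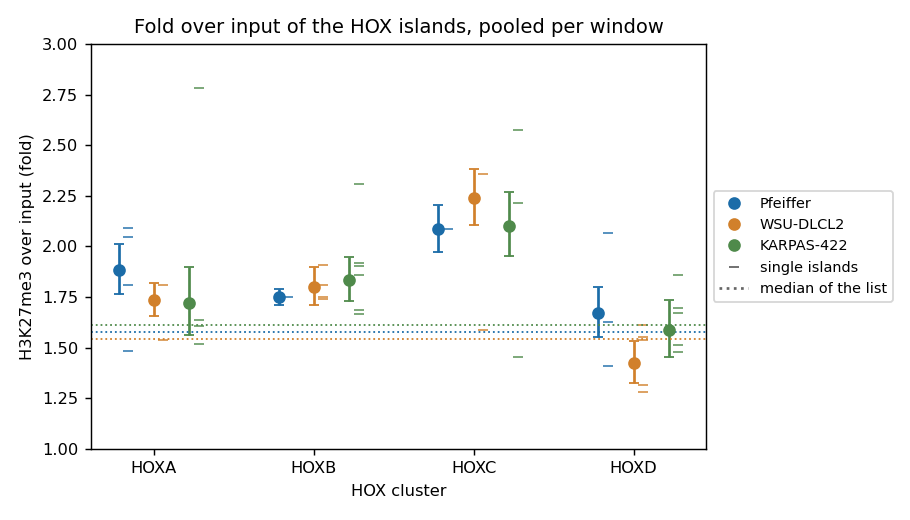
Fold of H3K27me3 over input (vertical axis) for the 4 HOX clusters (horizontal axis) in the 3 lines: points are pooled over the islands of a window with 95% counting intervals, dashes are single islands and dotted lines are each list's autosomal median. HOXC lies above 2 in the 3 lines, and HOXD between 1.42 and 1.67, close to the medians of 1.54 to 1.61.

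Single HOX islands were not uniformly strong. The fold was 2 or more in 4 of the 9 islands of Pfeiffer, 1 of the 13 of WSU-DLCL2 and 4 of the 18 of KARPAS-422, against 10.5%, 11.3% and 19.6% of all autosomal islands. The median fold was 1.81, 1.61 and 1.69, against 1.58, 1.54 and 1.61. Of the 40 islands 29 lay above their list's median fold and 28 above its median length, but a long island meets a window more easily. The strongest in HOXC were chr12:54414001-54447000 in KARPAS-422, on the HOXC4 side, with 2.57 (2.21 to 3.01), and chr12:54334501-54458250 in WSU-DLCL2, with 2.36 (2.21 to 2.52). In HOXB the strongest was chr17:46656751-46684500 in KARPAS-422, with 2.31 (1.95 to 2.75). The weakest of all 40 was chr2:176952001-176968500 on the HOXD13 side in WSU-DLCL2, with 1.28 (1.05 to 1.56), above only 7.84% of its list.

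H3K27me3 reads per kb of island, again over whole islands and so mostly over flanks for HOXB in Pfeiffer, gave another order. Divided by the median of each list (19.7, 20.9 and 20.1 reads per kb), HOXA had 1.18 (Pfeiffer), 1.59 (WSU-DLCL2) and 0.988 (KARPAS-422), and HOXB had 1.58, 1.10 and 0.997. The highest values were thus those of the windows with raised input, whose islands held 15.1 input reads per kb for HOXA in WSU-DLCL2 and 15.3 for HOXB in Pfeiffer, against list medians of 10.7 and 10.8. HOXC had 1.28, 1.33 and 1.14 at input values of 0.968, 0.910 and 0.881 of the median. HOXD had 0.998, 0.839 and 0.970. HOXC lay above HOXD in each line, in reads per kb as in fold, and below HOXB in Pfeiffer and HOXA in WSU-DLCL2 in reads per kb only.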

How the data were processed

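H3K27me3 chromatin of 3 lines was precipitated and sequenced beside input, per the labels' protocols. The submitters' processing notes name Bowtie, SICER and hg19, with no version. Sources used here give no filter on reads or duplicates. By the names of the deposited lists, SICER ran with windows of 750 bases, gaps of up to 2250 bases and a cut at a false discovery rate of 0.001. The authors deposited, for each island, counts of H3K27me3 and of input reads, a p-value with its q-value, and a fold. This deposited fold is the ratio of both counts divided by a library ratio, recovered from the values as 1.16 (Pfeiffer), 1.27 (WSU-DLCL2) and 1.65 (KARPAS-422). Reads outside islands are not in the lists, so total depth is unknown. Positions are printed counted from 1.

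Covered bases, breaks, limits and reads per kb were computed with Python 3.11.15 (scipy 1.17.1, pandas 2.3.3, numpy 2.4.6), by code that was checked on simulated data. Pooled folds used summed reads and the library ratio of the list. Their 95% intervals are exact for a ratio of counts. Background windows adjoin each other over the 22 autosomes. Every member and every island that met a window could be named, neighbours only where they come next to a cluster, and promoters only of outermost members or of those beside a break. Members, windows and lists were chosen with earlier results of these data known. Alternatives were a false discovery rate of at most 1e-10, a fold of at least 2, islands under 5 kb apart joined, windows 20 kb longer at both ends, and islands of at least 50 kb as the reference for reads per kb. Pooled shares without HOXB, or without HOXA and HOXB, were chosen after seeing the data. Single genes were not placed on hg19, whose annotation was not used here, so coverage per gene is not reported.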

Additional observations from a re-analysis of the deposited data

How the results depend on the processing

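Of 95 values recomputed, 57 stayed within their yardstick (for covered shares the 95% Wilson interval over steps of 750 bases, which are not independent, and for counts of breaks a factor of 3/2) and 38 moved. Most of the latter, 21, came from raising the lowest fold kept to 2. That cut kept unequal shares of all autosomal islands: 10.5% (Pfeiffer), 11.3% (WSU-DLCL2) and 19.6% (KARPAS-422). Covered shares then became 43.1% for HOXA, 0% for HOXB and 18.75% for HOXD in Pfeiffer, 0% for each of these 3 in WSU-DLCL2, and 5.625%, 13.2% and 0% in KARPAS-422. The pooled shares were 34.1%, 18.9% and 23.0%, so that WSU-DLCL2 and KARPAS-422 changed places. The share covered in all 3 lines was 0% for HOXA, HOXB and HOXD and 16.8% over the 4 windows. Breaks numbered 4 and 8 in WSU-DLCL2 and KARPAS-422, and islands reached 55.5, 8.25 and 0 kb beyond the windows. In these counts a window left without any island is 1 break, so fewer breaks do not mean fuller coverage. Such windows were HOXB in Pfeiffer, HOXA, HOXB and HOXD in WSU-DLCL2, and HOXD in KARPAS-422. At a false discovery rate of at most 1e-10, HOXD fell to 39.4% (WSU-DLCL2) and 46.25% (KARPAS-422), which turned the order of these lines in HOXD, and the pooled share of WSU-DLCL2 to 70.5%. Joining islands under 5 kb apart raised HOXC in WSU-DLCL2 to 100% and the reach beyond the windows to 335.75 kb (WSU-DLCL2) and 252.5 kb (KARPAS-422). With longer windows HOXD in Pfeiffer was covered to 69.2%, HOXC in WSU-DLCL2 to 93.6% and the pooled windows in Pfeiffer to 82.9%. Set against islands of at least 50 kb, pooled reads per kb were 1.21, 1.04 and 0.878 of the list median in the 3 lines, in place of 1.43, 1.23 and 1.03. Pooled shares without HOXB were 78.6% in Pfeiffer and 61.9% in KARPAS-422, and without HOXA and HOXB 88.4%, 81.25% and 72.5%. The count of breaks rose from Pfeiffer through WSU-DLCL2 to KARPAS-422 at the stricter false discovery rate, with islands joined and with longer windows. It did not with a fold of at least 2, and breaks were not recounted without HOXB or without HOXA and HOXB. No paired analysis was possible because each line has 1 library.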
